A study of Mus musculus with 10 samples.

Results

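The T cell receptor complex genes are the genes of the receptor and of its nearest partners at the T cell membrane, measured here as RNA in whole kidney of old mice. The genes named as members were Cd3d, Cd3e, Cd3g, Cd4, Cd8a, Cd8b1, Trbc1, Trbc2, Lck and Ltb, and a member was kept when its symbol was a row of the deposited table. Of these 10 genes, 6 were present among the 13299 genes of the table (Cd3d, Cd3e, Cd8b1, Lck, Trbc1 and Trbc2), and all 6 passed the filter on low values. Cd3g, Cd4, Cd8a and Ltb were not analysed here. Of the T cell markers Cd3d, Cd3e, Cd3g, Trac, Trbc1 and Trbc2, 5 were in the table, and each of these was above 0 in 5 of 5 Rragc S74N/+ and in at least 4 of 5 Rragc +/+ kidneys. Presence in the table required enough reads, so members were in part selected on their read level, and they were proposed with earlier results of these samples known. The tests of genotype below are therefore given as a description of these kidneys and not as independent support.

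The samples were 5 kidneys of Rragc S74N/+ mice and 5 kidneys of Rragc +/+ mice, all aged 1.5 years, with no other treatment or allele given. Rragc encodes RagC, a small GTPase through which nutrients act on mTORC1, and S74N is an activating change that the study knocked into the gene. The change was present in 1 of the 2 alleles and in the whole body, T cells included, so the genotype of the kidney and that of its leukocytes cannot be told apart. The labels give whole tissue, number no replicates and name no animals, so replicates were numbered by order of deposit and p-values measure the spread between these samples. Reads counted in the genes of the table came to 4488493 to 5797251 in the 8 kidneys whose whole reads could be recovered. They leave out reads not assigned to these genes. Over all 10 kidneys 1 read was worth 0.873 to 1.12 normalized counts.

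A T cell reads its target through a receptor of paired alpha and beta chains, whose constant parts are encoded by Trac and by either Trbc1 or Trbc2. The receptor chains have short tails, and the signal is passed by the CD3 chains, which carry the motifs that the kinase Lck phosphorylates. The coreceptors CD4 and CD8 hold Lck and bring it to the receptor, with CD8 on cytotoxic T cells as a pair of alpha and beta chains. T cells are scarce in a healthy kidney, and the tubule cells that make up most of the organ do not use these genes.

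Trbc1 and Trbc2 lie together on chromosome 6 and are near-identical copies, so the stretch that tells their reads apart bears on every value given for the pair. In the GENCODE vM21 transcript of each gene the constant-region coding part has 521 bases with the stop codon, of which 23 differ, an identity of 95.6%. Only 1 difference falls in the first 360 bases, and the other 22 fall in the last 161 coding bases, which encode the end of the constant region, the membrane span and the short tail. These last 161 bases are shown with the differing bases in capitals:
Trbc1: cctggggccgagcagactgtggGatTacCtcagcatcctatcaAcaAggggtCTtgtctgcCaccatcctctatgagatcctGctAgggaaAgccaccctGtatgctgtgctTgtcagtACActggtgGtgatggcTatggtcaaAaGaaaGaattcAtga
Trbc2: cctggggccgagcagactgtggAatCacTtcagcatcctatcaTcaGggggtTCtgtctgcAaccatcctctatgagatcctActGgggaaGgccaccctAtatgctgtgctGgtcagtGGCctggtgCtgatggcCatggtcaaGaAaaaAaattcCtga
After the stop codon the transcripts no longer resemble each other. The 216 bases of Trbc1 and the 171 bases of Trbc2 that follow it share no identical run longer than 8 bases. The libraries were primed from the poly(A) tail and read the 3′ end of each mRNA. How the authors counted reads that align to both genes was not given in the sources used here, and the values of the pair are uncertain to that extent.

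Among the 3′ counts of the 6 genes the levels were low. Their means over the 10 kidneys ran from 8.36 normalized counts for Trbc1 to 16.0 for Trbc2, and 15.3% of the genes of the table had a mean at or below the latter. In Rragc +/+ kidneys the order of mean normalized counts was Lck, Cd3e, Trbc2, Cd8b1, Cd3d and Trbc1. No neighbouring pair in that order differed by more than the larger of its SDs. In Rragc S74N/+ kidneys the order was Trbc2, Cd3e, Lck, Cd8b1, Trbc1 and Cd3d. Lck and Cd8b1 differed there by 3.96 normalized counts, more than their SDs of 3.74 and 3.42, and no other neighbours did.

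To ask whether these genes differed between genotypes in old kidney, each was fitted with limma on log2(normalized count + 1) together with all 13236 genes that passed the filter. The mean was higher in Rragc S74N/+ kidneys for 6 of the 6 genes, beside 49.5% of all tested genes. Only Trbc1 passed the threshold of 0.05 after adjustment over all tested genes, which is 1 of 6 genes, beside 3.45% of all tested genes that passed it in the higher direction, 2.58% in the lower and 6.03% in either. This split over all genes depends on scaling, with 457 higher and 341 lower as fitted and 718 and 225 with equal library totals. Groups did not overlap for 2 of the 6 (Trbc1 and Lck), beside 4.15% of all tested genes in that direction and 8.16% in either. Trbc1 reached the filter minimum of 5 normalized counts in 5 of 5 Rragc S74N/+ and 0 of 5 Rragc +/+ kidneys. The filter alone thus kept its groups apart, and its place in both counts is no support. The median log2 fold change was 1.40 over the 6 genes and -0.01 over all tested genes. In whole tissue, more T cells and more RNA per T cell cannot be told apart.

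**Figure D1:**
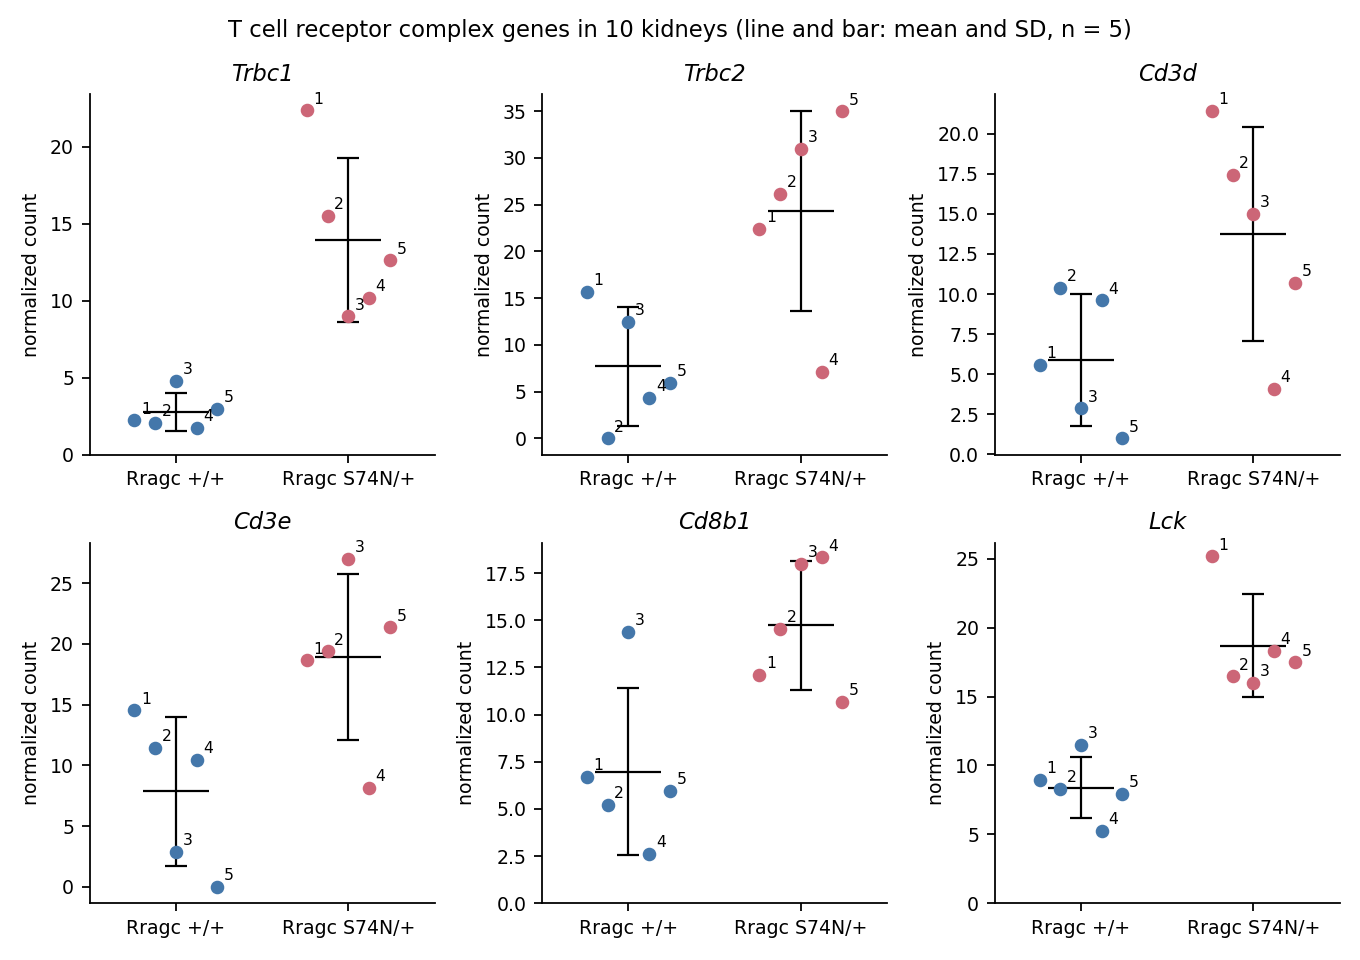
Normalized counts of the 6 T cell receptor complex genes on the vertical axes, with 1 point per kidney and its replicate number, by genotype on the horizontal axes. Lines and bars are the mean and SD (n = 5). Trbc1 and Lck show groups that do not overlap, and the Rragc S74N/+ replicate 4 kidney lies low for Trbc2, Cd3d and Cd3e.

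Of the receptor chains, Trbc1 encodes a constant region of the beta chain. Its normalized counts in Rragc +/+ replicates 1 to 5 were 2.24, 2.08, 4.80, 1.75 and 2.98. In Rragc S74N/+ replicates 1 to 5 they were 22.4, 15.5, 9.0, 10.2 and 12.6. Every Rragc S74N/+ kidney lay above every Rragc +/+ kidney. The means were 2.77 ± 1.22 and 13.9 ± 5.34 (SD, n = 5 each), a 5.03-fold difference. The log2 fold change was 1.97 with a standard error of 0.433 and a 95% interval of 1.05 to 2.89 (limma, adjusted p = 0.016), and the exact two-sided permutation p was 0.00794, the smallest that 252 allocations can give. Trbc1 reached the minimum of 5 normalized counts in 5 of 5 Rragc S74N/+ kidneys and 0 of 5 Rragc +/+ kidneys, so it entered the fit only through the group in which it was high and had to differ to be tested. In whole reads, where they could be recovered, the Rragc +/+ kidneys held 2, 2, 5 and 2 reads of Trbc1. For 2 reads the exact 95% Poisson interval is 0.242 to 7.22 reads, which covers counting error only.

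Trbc2, which encodes the other beta constant region, had the highest mean of the 6 genes but also the widest spread. Its normalized counts in Rragc +/+ replicates 1 to 5 were 15.7, 0, 12.5, 4.37 and 5.97. The Rragc S74N/+ replicates 1 to 5 had 22.4, 26.2, 31.0, 7.13 and 35.0. Of the Rragc S74N/+ kidneys, 4 lay above all Rragc +/+ kidneys and replicate 4 lay among them. Rragc +/+ replicate 2 held 0 reads, which allows up to 3 reads at its depth. The means were 7.70 ± 6.32 and 24.3 ± 10.7 (SD, n = 5 each), a 3.16-fold difference. The log2 fold change of 1.89 had a 95% interval of 0.522 to 3.26 and was not called (limma, adjusted p = 0.088), beside an exact permutation p of 0.024 without adjustment. Without Rragc +/+ replicate 2 the log2 fold change was 1.24.

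Because the pair shares most of its coding sequence, the 2 genes were also summed, a choice made after their values had been seen. The sum was 10.5 ± 6.95 normalized counts in Rragc +/+ and 38.3 ± 12.1 in Rragc S74N/+ kidneys (SD, n = 5 each). Refitted as 1 gene among all others, it had a log2 fold change of 1.98 with a standard error of 0.454 and passed the threshold (limma, adjusted p = 0.020). The sum holds Trbc1, which entered the fit only through the Rragc S74N/+ group, so this call is no support. The groups overlapped, since the 17.3 normalized counts of Rragc S74N/+ replicate 4 fell below the 17.9 of Rragc +/+ replicate 1. The share of Trbc1 in the sum ranged from 12.5% to 100% in Rragc +/+ kidneys and from 22.5% to 58.8% in Rragc S74N/+ kidneys, so the groups overlapped in this share. The value of 100% belongs to Rragc +/+ replicate 2, whose sum was 2.08 normalized counts.

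The other chain of the receptor, encoded by Trac, was no member but is the direct partner of both beta genes. Its normalized counts in Rragc +/+ replicates 1 to 5 were 14.5, 22.9, 23.0, 27.9 and 9.95. Across Rragc S74N/+ replicates 1 to 5 they were 32.6, 41.7, 42.0, 40.7 and 45.7, all above the Rragc +/+ kidneys, beside 4.15% of all tested genes without overlap in that direction. The means were 19.7 ± 7.26 and 40.5 ± 4.80 (SD, n = 5 each), with a log2 fold change of 1.08 and a standard error of 0.271 that passed the threshold (limma, adjusted p = 0.030). The call was lost without any 1 of Rragc +/+ replicates 1 and 2 or Rragc S74N/+ replicates 2, 4 and 5 and in the fits on 8 kidneys, with adjusted p-values from 0.019 to 0.074 over all alternatives. Rragc S74N/+ replicate 4, low for Trbc2 and the CD3 genes, was within the range of its group for Trac.

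**Figure D2:**
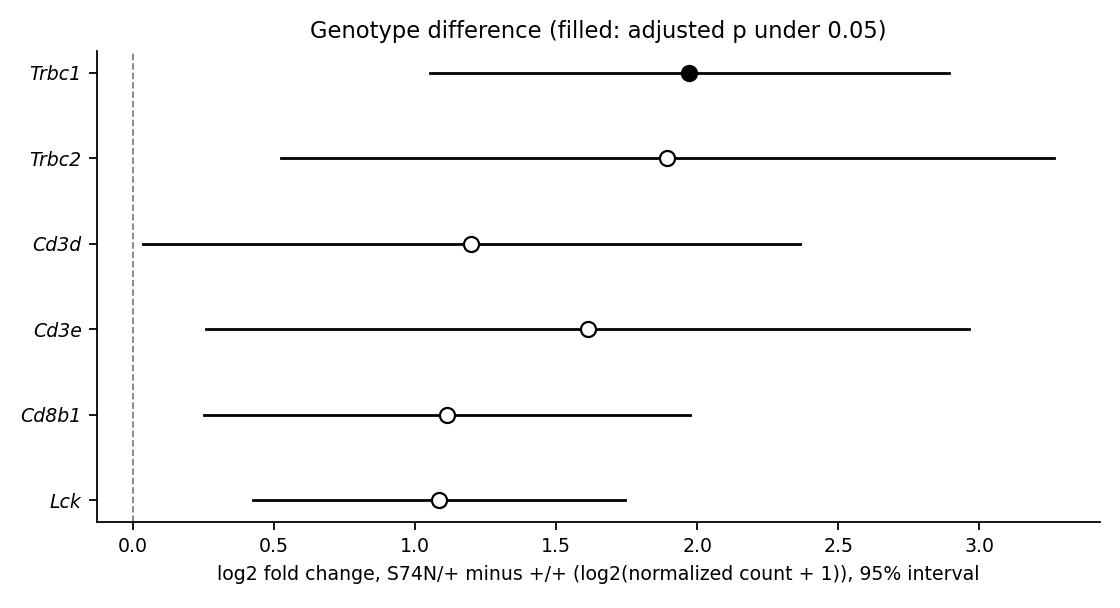
Log2 fold changes of the 6 genes, Rragc S74N/+ minus Rragc +/+, on the scale of log2(normalized count + 1), with 95% intervals from limma over 10 kidneys. All 6 estimates lie above 0, and only that of Trbc1 (1.97, filled) passed the adjusted threshold.

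Cd3d and Cd3e encode the delta and epsilon chains of CD3 and lie with Cd3g in 1 cluster on chromosome 9. Cd3d had 5.59, 10.4, 2.88, 9.61 and 0.995 normalized counts in Rragc +/+ replicates 1 to 5. It had 21.4, 17.4, 15.0, 4.07 and 10.7 in Rragc S74N/+ replicates 1 to 5. The top 4 Rragc S74N/+ kidneys lay above all Rragc +/+ kidneys and replicate 4 lay among them. The means were 5.90 ± 4.10 and 13.7 ± 6.66 (SD, n = 5 each), and the log2 fold change of 1.20, with a 95% interval of 0.03 to 2.36, was not called (limma, adjusted p = 0.185, with an exact permutation p of 0.063 without adjustment).

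Cd3e followed the same kidneys. Its normalized counts in Rragc +/+ replicates 1 to 5 were 14.5, 11.4, 2.88, 10.5 and 0. In Rragc S74N/+ replicates 1 to 5 they were 18.7, 19.4, 27.0, 8.15 and 21.4. The lowest values in each group were again those of Rragc +/+ replicates 3 and 5 and of Rragc S74N/+ replicate 4. The means were 7.87 ± 6.14 and 18.9 ± 6.85 (SD, n = 5 each), and the log2 fold change of 1.61, with a 95% interval of 0.26 to 2.96, was not called (limma, adjusted p = 0.131, with an exact permutation p of 0.032 without adjustment). Rragc +/+ replicate 5 set much of this size. Without it the log2 fold change was 0.96 for Cd3e and 0.82 for Cd3d.

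Cd8b1 encodes the beta chain of CD8, and its partner gene Cd8a was not analysed here. Its normalized counts in Rragc +/+ replicates 1 to 5 were 6.71, 5.20, 14.4, 2.62 and 5.97. In Rragc S74N/+ replicates 1 to 5 they were 12.1, 14.5, 18.0, 18.3 and 10.7. The groups overlapped through Rragc +/+ replicate 3, which lay above 2 of the Rragc S74N/+ kidneys. Replicate 4 of Rragc S74N/+, lowest for both CD3 genes, was the highest for Cd8b1. The means were 6.98 ± 4.42 and 14.7 ± 3.42 (SD, n = 5 each), with a log2 fold change of 1.11, a 95% interval of 0.25 to 1.97 and no call (limma, adjusted p = 0.107, with an exact permutation p of 0.024 without adjustment).

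Lck, the kinase that starts signaling from the receptor, had the smallest SD relative to its mean of the 6 genes in both groups. Its normalized counts in Rragc +/+ replicates 1 to 5 were 8.95, 8.32, 11.5, 5.24 and 7.96. Those of the Rragc S74N/+ replicates were 25.2, 16.5, 16.0, 18.3 and 17.5. The groups did not overlap, and the gap lay between 11.5 and 16.0 normalized counts. The means were 8.40 ± 2.25 and 18.7 ± 3.74 (SD, n = 5 each), a 2.23-fold difference. The log2 fold change of 1.08 had a 95% interval of 0.43 to 1.74 and missed the threshold by a small margin (limma, adjusted p = 0.0502), beside the smallest possible exact permutation p of 0.00794. Over 21 alternative fits its adjusted p ran from 0.020 to 0.114, and 7 of them passed the threshold, 1 of these being the fit without Rragc +/+ replicate 3 (limma, adjusted p = 0.0497).

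How far counting alone could produce the spread differed between genes. If the values were reads with Poisson error, the SD within the Rragc +/+ group would be 2.91 normalized counts for Lck and 1.66 for Trbc1, both larger than the observed SDs of 2.25 and 1.22. For Trbc2 the counting SD was 2.80 in Rragc +/+ and 4.87 in Rragc S74N/+ kidneys, less than the observed 6.32 and 10.7. Cd3e had observed SDs of 6.14 and 6.85, beside counting SDs of 2.83 and 4.29. For Cd3d the observed SDs were 4.10 and 6.66, beside 2.42 and 3.65. In Rragc S74N/+ kidneys the SD of Trbc1 was 5.34 beside 3.68, and that of Lck 3.74 beside 4.27. The observed spread was thus larger than the counting SD in both groups for Cd3d, Cd3e and Trbc2 and smaller in both for Lck, while Trbc1 and Cd8b1 differed between groups in this respect.

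Sequence upstream of the start site is shown for the CD3 genes and for Lck, since these 3 genes had the higher mean in Rragc S74N/+ kidneys and RefSeq promoters were given for them. Promoters were matched for 6 of the 10 members and not for Trbc1, Trbc2, Cd8b1 or Cd4. The 250 bases before the start site (RefSeq, GRCm38.p6, an older build than the one used for counting, 5′ to 3′ on the strand of the gene) were searched on both strands for words bound by factors used in T cells. These were TGTGGT (RUNX), AGGAAG (ETS), CAGCTG (E-box) and CTTTGA (TCF/LEF), and matches are in capitals:
Cd3d, chr9:44981536-44981785, plus strand: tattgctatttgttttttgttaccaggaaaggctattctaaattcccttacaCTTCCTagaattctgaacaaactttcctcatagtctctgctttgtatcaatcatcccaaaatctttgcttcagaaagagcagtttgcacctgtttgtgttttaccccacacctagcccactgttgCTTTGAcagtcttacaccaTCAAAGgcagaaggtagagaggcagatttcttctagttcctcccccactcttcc
Cd3e, chr9:45009612-45009861, minus strand: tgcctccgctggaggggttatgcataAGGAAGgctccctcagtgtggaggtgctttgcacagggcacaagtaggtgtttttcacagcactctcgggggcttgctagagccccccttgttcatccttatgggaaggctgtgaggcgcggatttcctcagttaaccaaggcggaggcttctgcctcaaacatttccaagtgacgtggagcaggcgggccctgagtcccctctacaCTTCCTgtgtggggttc
Lck, chr4:129573642-129573891, minus strand: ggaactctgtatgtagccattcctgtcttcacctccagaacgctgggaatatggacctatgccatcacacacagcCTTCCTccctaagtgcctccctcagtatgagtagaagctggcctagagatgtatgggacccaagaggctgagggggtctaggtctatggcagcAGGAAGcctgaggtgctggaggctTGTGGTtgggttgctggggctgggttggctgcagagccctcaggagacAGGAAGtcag
AGGAAG was found once for Cd3d, with 2 matches for Cd3e and 3 for this start site of Lck, and 29.5% of all 32851 promoters hold it within the same distance. CTTTGA was found with 2 matches for Cd3d, 73 and 54 bases before the start site, and is held by 13.8% of all promoters. TGTGGT was found once, for Lck, and is held by 14.0%. CAGCTG, held by 13.0%, was found in none of the 3 windows, and other forms of the E-box were not searched for. Windows searched but not shown held few matches. Another Lck start site (chr4:129558373-129558622) had 1 match, to AGGAAG, and Ltb had 2, both to AGGAAG. Cd3g and Cd8a had 0. A match is a description of these letters only.

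Summed over the 6 genes, the T cell receptor complex took 53.7, 37.5, 49.0, 34.1 and 23.9 normalized counts in Rragc +/+ replicates 1 to 5. In Rragc S74N/+ replicates 1 to 5 the sum was 122, 110, 116, 66.2 and 108. The groups did not overlap in this sum, beside 4.15% of all tested genes in that direction and 8.16% in either. The means were 39.6 ± 11.9 and 104 ± 22.1 (SD, n = 5 each). The sum includes Trbc1, which passed the filter only through the Rragc S74N/+ group, so this separation is no support. Rragc S74N/+ replicate 4 stood below the other 4 of its group.

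**Figure D3:**
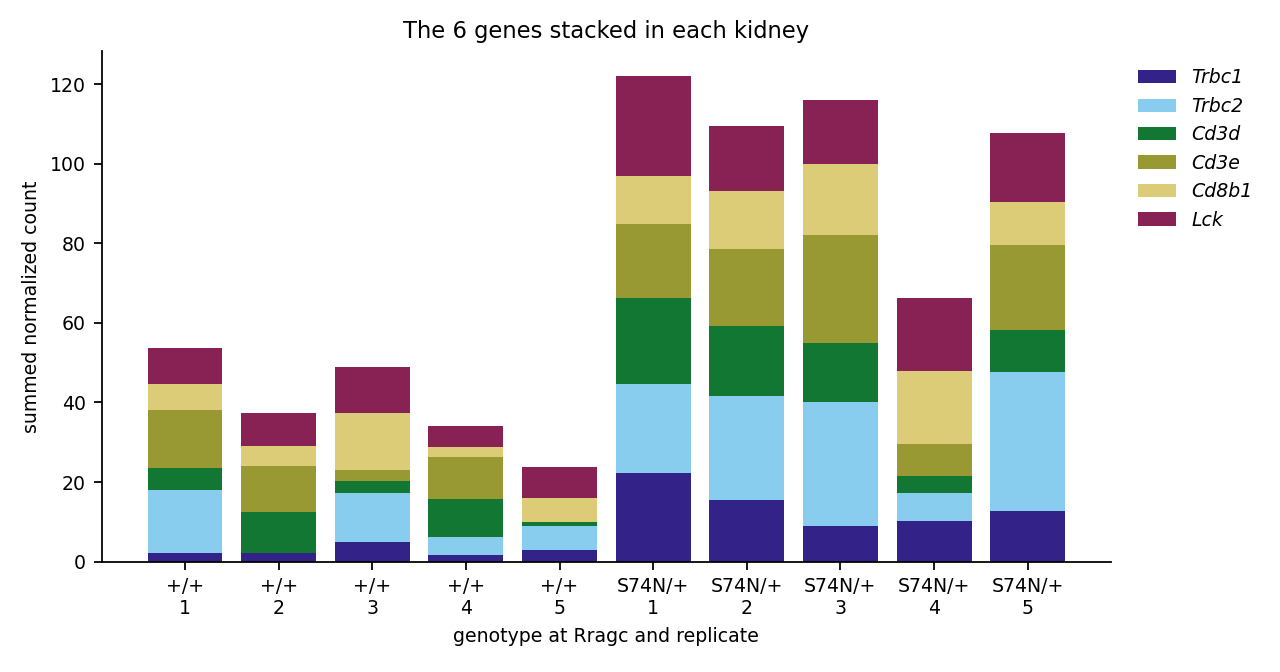
Summed normalized count on the vertical axis for each of the 10 kidneys, with 1 colored block per gene. The 5 Rragc S74N/+ bars (66.2 to 122) lie above the 5 Rragc +/+ bars (23.9 to 53.7), and Trbc2, Cd3d and Cd3e are small in Rragc S74N/+ replicate 4. The bars include Trbc1, which passed the filter only through the Rragc S74N/+ group.

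Once the genotype means were removed, the genes did not follow one another as a single group. Over the 15 pairs of the 6 genes, Pearson's r across the 10 kidneys ran from -0.475 (Cd3d and Cd8b1) to 0.851 (Cd3d and Cd3e), with a median of -0.01, and 7 pairs were above 0. Lck went with Trbc1 (r = 0.773) and with Cd8b1 (r = 0.639), while Cd3e and Lck gave r = -0.206. These points share library and depth, the counts are low, and the values are a description.

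The genes whose pattern within genotypes was most like the mean of the 6 were 1110008P14Rik, Phf11b, Blnk, Ccdc136, S100a13, Ifnar2, Sik2, Rfx5, Prkca and B130034C11Rik. Their Pearson's r over 10 kidneys lay between 0.900 and 0.953. Of 13230 genes compared, 73 had r above 0.8 and 58 had r below -0.8, and none of the 10 genes named differed between genotypes past the threshold (limma, lowest adjusted p = 0.156).

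To set the T cell genes beside leukocytes as a whole, they were divided by Ptprc, which encodes CD45, a surface phosphatase of nearly all leukocytes. Ptprc itself ran from 64.6 to 92.9 normalized counts in Rragc +/+ and from 120 to 256 in Rragc S74N/+ kidneys, without overlap, beside 4.15% of all tested genes in that direction. Its log2 fold change was 1.20 with a standard error of 0.182 and passed the threshold (limma, adjusted p = 0.0015). Per 100 normalized counts of Ptprc, Cd3d plus Cd3e gave 17.8 ± 12.8 in Rragc +/+ and 19.6 ± 10.8 in Rragc S74N/+ kidneys (SD, n = 5 each). The sum of the 6 genes gave 51.4 ± 12.4 and 61.6 ± 24.1, a ratio added after the values had been seen. Both ratios overlapped between genotypes, and both differences of means were smaller than the SD of either group. The lowest Rragc S74N/+ values were those of replicates 4 and 5, with 6.98 and 12.5 for the CD3 genes.

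**Figure D4:**
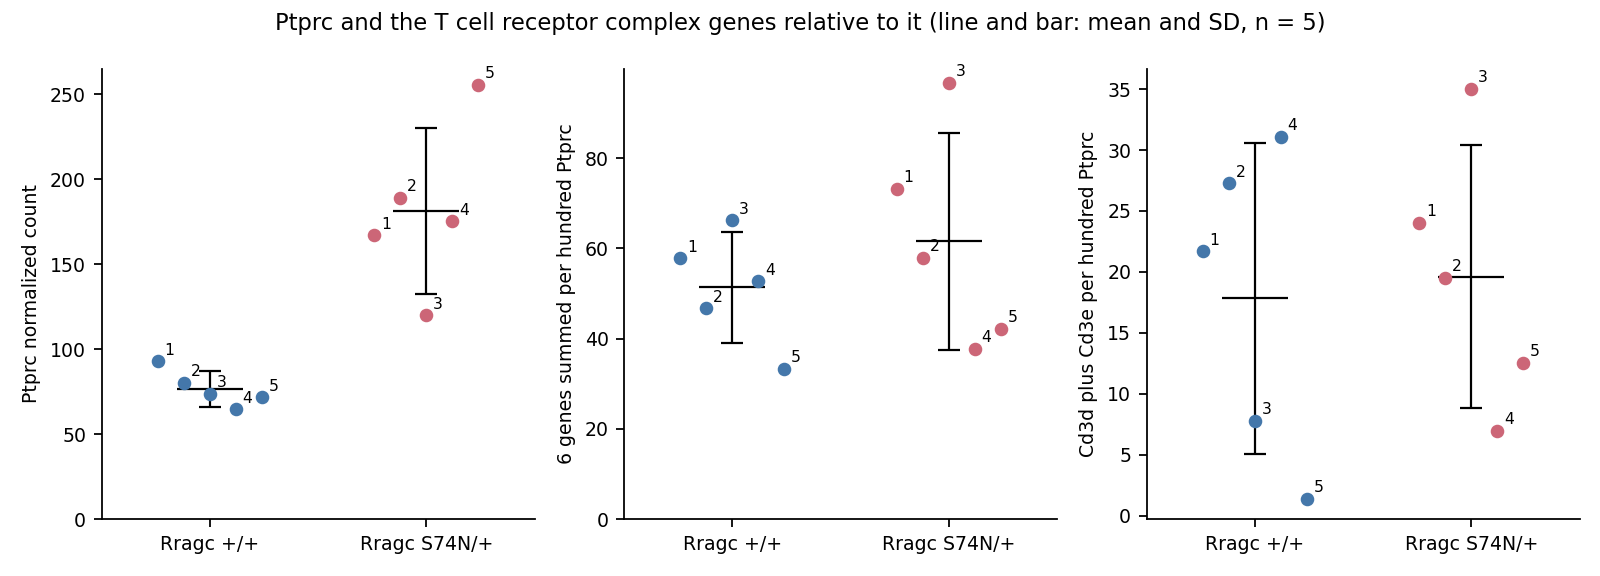
Ptprc normalized count, the 6 genes per 100 normalized counts of Ptprc and Cd3d plus Cd3e per 100 normalized counts of Ptprc on the vertical axes, 1 numbered point per kidney, with mean and SD (n = 5). Ptprc separates the genotypes (64.6 to 92.9 against 120 to 256), and both ratios overlap.

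Of 40 other genes of the receptor and its signaling, 21 were in the table and 20 were tested. In that list 3 rose in Rragc S74N/+ kidneys, beside 3.45% of all tested genes, 0 fell and 17 did not pass the threshold. The median log2 fold change of the list was 0.46. The 3 were Trac, Icos and Il7r, and the count was 1 without Rragc S74N/+ replicate 2. Icos, a costimulatory receptor of activated T cells, went from 3.06 ± 1.80 to 13.7 ± 3.39 normalized counts (SD, n = 5 each; limma, adjusted p = 0.019). Il7r, the receptor chain for the survival cytokine IL-7, went from 4.47 ± 2.11 to 23.3 ± 7.21 with a log2 fold change of 2.20 (limma, adjusted p = 0.0046). For both the groups did not overlap, beside 4.15% of all tested genes in that direction. Their Rragc +/+ values were near or below the filter minimum of 5 normalized counts, at most 5.59 for Icos and 6.71 for Il7r. Both thus passed the filter through the Rragc S74N/+ group, in which they were high. The adaptor gene Lcp2 had means of 10.8 and 28.9 normalized counts without passing the threshold (limma, adjusted p = 0.063), and so did the kinase gene Fyn with 51.5 and 75.7 (adjusted p = 0.104) and the adaptor gene Skap1 with 4.40 and 9.79 (adjusted p = 0.197).

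Of 23 markers of T cell states, 7 were tested and 0 fell past the threshold. The mean was higher in Rragc S74N/+ kidneys for 3 of the 7, and the median log2 fold change was -0.33. Cd44, an adhesion receptor high on memory T cells but carried by many cell types, rose, with means of 11.7 and 33.4 normalized counts (limma, adjusted p = 0.0089). Ikzf2, Tox, S1pr1 and Klf2 did not pass the threshold, and the mean of Klf2, a factor of resting T cells and of endothelium, was 148 in Rragc +/+ and 95.2 in Rragc S74N/+ kidneys (adjusted p = 0.189). Of 19 genes of natural killer and cytotoxic cells, 3 were tested and 1 rose, beside 3.45% of all tested genes. Ccl5, a chemokine of these cells, rose from 19.2 ± 8.11 to 44.6 ± 15.2 (SD, n = 5 each; limma, adjusted p = 0.032) with overlap between groups. This call was lost without any 1 of Rragc +/+ replicates 1, 2, 4 and 5 or Rragc S74N/+ replicates 2, 3 and 5, which is 7 of 10 fits, and its adjusted p over all alternatives ran from 0.0076 to 0.086. Nkg7 and Ctsw did not pass. For gamma-delta T cells the table held only Sox13, at 50.7 and 38.4 normalized counts (adjusted p = 0.274), so no receptor gene of those cells was analysed here.

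Of 14 genes of the lymphotoxin pathway and lymphoid tissue, 8 were tested and 1 rose, beside 3.45% of all tested genes. Ccl19, a chemokine that draws T cells into lymphoid tissue, had 20.1, 7.28, 27.8, 9.61 and 16.9 normalized counts in Rragc +/+ replicates 1 to 5. The Rragc S74N/+ replicates had 83.0, 52.3, 50.0, 76.4 and 62.2, with no overlap. Over all tested genes, groups did not overlap for 4.15% in the higher direction and 8.16% in either. The log2 fold change of Ccl19 was 2.04 with a standard error of 0.314 (limma, adjusted p = 0.0017). Ltbr, the receptor for the lymphotoxin that Ltb helps to form, had means of 180 and 142 without overlap between groups and did not pass (adjusted p = 0.115), and Map3k14, Nfkb2, Relb and Traf3 of the same pathway did not pass either.

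Some markers of other blood cells rose in the same Rragc S74N/+ kidneys, as did 3.45% of all tested genes. The part of these markers in the T cell values was not tested. Among 15 tested macrophage, monocyte and dendritic cell markers 4 rose. The summed level of all 15 was 744 to 988 normalized counts in Rragc +/+ and 1227 to 1610 in Rragc S74N/+ kidneys, without overlap. Of the 4, Ccr2, a monocyte chemokine receptor, had means of 35.8 and 108 (limma, adjusted p = 0.0015), Cx3cr1 62.2 and 144, Lyz2 79.3 and 155, and C1qb 100 and 168. Adgre1, Cd68, Csf1r and Itgam did not pass. Among 11 tested B cell and plasma cell markers 1 rose in the fit of all 10 kidneys, Cd74 (means 910 and 1864, limma, adjusted p = 5.1e-04), a gene that macrophages also use. The B cell genes Ms4a1 (4.34 and 15.5), Cd79b (4.70 and 10.2), Cr2 (5.90 and 16.5) and Ighm (277 and 429) did not pass, and Bank1 was not tested. The summed level of the B cell list overlapped, with 1790 to 3937 normalized counts in Rragc +/+ and 3236 to 9190 in Rragc S74N/+ kidneys. The count of this list was 4 without Rragc S74N/+ replicate 3, 3 without Rragc +/+ replicate 3, 2 without Rragc +/+ replicate 5 and 3 with each tool on 8 kidneys.

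Of 3 tested neutrophil genes S100a9 rose (means 10.9 and 31.2, limma, adjusted p = 0.040), beside 3.45% of all tested genes, and S100a8 and Cxcr2 did not pass. The call of S100a9 was lost without any 1 of Rragc +/+ replicates 2 to 5 or Rragc S74N/+ replicates 2, 4 and 5, which is 7 of 10 fits, and its adjusted p over all alternatives ran from 0.0050 to 0.107. Of 14 genes shared by leukocytes, Ptprc, Rac2 and Cd52 rose and 0 fell, beside 3.45% and 2.58% of all tested genes. The call of Cd52 was lost without any 1 of Rragc +/+ replicates 1, 2 and 4 or Rragc S74N/+ replicates 2 and 5. Of 5 genes of dividing cells, Mki67 had means of 11.2 and 39.3 and Top2a 26.3 and 77.9. Both passed (limma, adjusted p = 0.022 and 0.014), beside 3.45% of all tested genes in that direction, while Birc5, Cdc20 and Stmn1 did not. The call of Mki67 was lost without any 1 of Rragc +/+ replicates 2 and 4 or Rragc S74N/+ replicates 2 and 5, and both calls were lost without the variance trend.

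Kidney markers were abundant in every library, with the proximal tubule genes Lrp2 and Slc34a1 at means of 5579 and 18242 normalized counts in Rragc +/+ kidneys. Umod of the thick ascending limb and Slc12a3 of the distal convoluted tubule fell in Rragc S74N/+ kidneys (limma, adjusted p = 0.0013 and 1.6e-06), beside 2.58% of all tested genes. The other 11 tested kidney markers did not pass. Of 5 tested fat cell markers none passed (limma, and none at an unadjusted p under 0.05 in the higher direction), with a summed level from 54.1 to 1077 in Rragc +/+ and from 50.9 to 4329 in Rragc S74N/+ kidneys. Rragc, the altered gene, had 146 ± 42.7 and 124 ± 26.4 normalized counts (SD, n = 5 each; limma, adjusted p = 0.508), and counts of its 3′ end do not show which allele they come from.

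The numbers in the sample titles fall into a lower and an upper range, with 3 and 2 kidneys of each genotype, and what they stand for was not given. In the lower range the mean of each of the 6 genes was higher in Rragc S74N/+ kidneys, for example 15.6 against 3.04 normalized counts for Trbc1 and 19.2 against 9.60 for Lck. With 3 against 3 kidneys the exact permutation p cannot go below 0.10, and it was at that limit for 5 of the 6 genes and 0.20 for Cd8b1. For Trbc1, 1 of these 5, the filter alone kept the groups apart and so set its p in advance. A p at this limit is no support for a difference. In the upper range, with 2 kidneys of each genotype, an exact permutation p cannot go below 0.333 and none was computed. The means there were 11.4 against 2.37 for Trbc1 and 17.9 against 6.60 for Lck, and those of Cd3d were nearest, with 7.38 against 5.30.

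**Figure D5:**
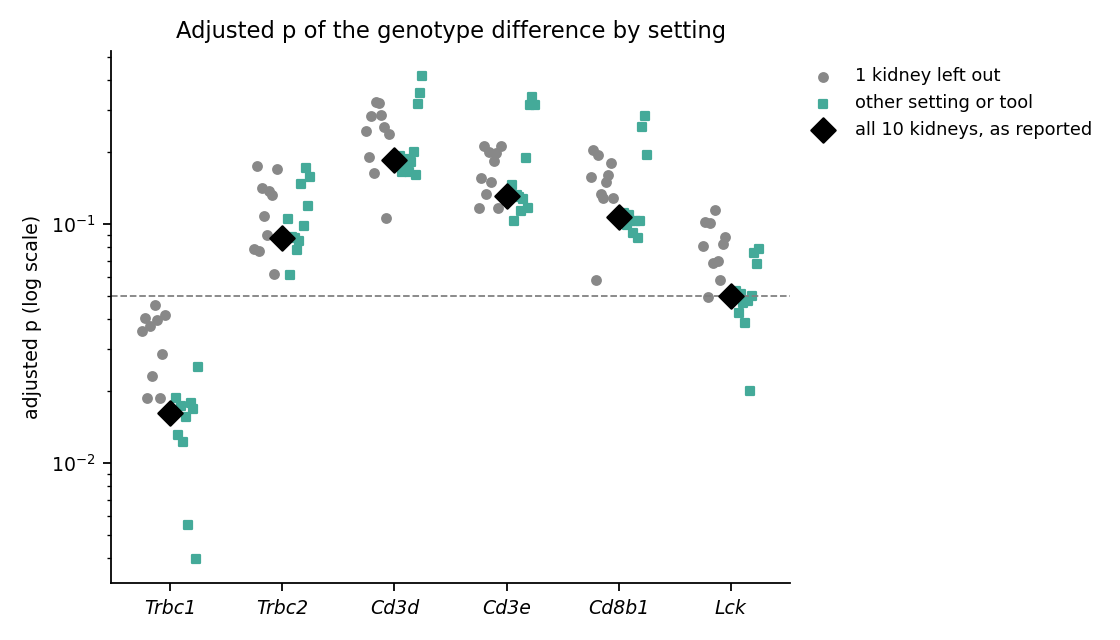
Adjusted p of the genotype difference (vertical axis, log scale) for each gene under each setting, with the value as reported (diamond), fits that leave out 1 kidney (circles) and other settings or tools (squares). The dashed line is 0.05. Trbc1 stays below it wherever it was tested (0.0040 to 0.046), Lck straddles it (0.020 to 0.114) and the other 4 genes stay above it.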

How the data were processed

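Whole kidney RNA of 10 mice was sequenced at the 3′ end (QuantSeq, 300 ng of RNA, mean quality score 6.7). Per the submitters' processing notes and the methods, the authors aligned reads to GRCm39 with TopHat2 2.0.10, counted them per gene with HTSeq 0.6.1 on the sense strand and scaled them with DESeq. The deposited values are a signal, read counts divided by a size factor of each sample. Genes with few reads are missing by a rule not given in the sources used here, and the lowest gene mean was 4.37.

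Genes with at least 5 normalized counts in at least 5 samples were fitted with limma 3.58.1 (R 4.3.3) on log2(value + 1), genotype as the only term, eBayes with a variance trend, Benjamini-Hochberg adjustment over 13236 genes, two-sided. Fold changes on that scale understate changes of low genes. Exact permutation tests used mean normalized counts. In 8 columns 100% of values were whole reads (tolerance 0.01 of a read), and edgeR 4.0.16 and DESeq2 1.42.0 were run on these as alternatives. For Rragc +/+ replicate 5 and for Rragc S74N/+ replicate 3, 1 read was worth too nearly 1 normalized count to be tested in this way, and neither entered a count model. Only the limma and edgeR fits were tested on simulated counts.

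The members and gene lists were chosen with earlier results of these data known. The text names every member, the first 5 genes present and up to 5 changed genes of each list, the 10 genes most alike in pattern and Rragc. Some results on markers of T cell states are not reported here. Cd4 to Cd8 ratios were not computed because Cd4 and Cd8a were not analysed here, and the ratio of Trbc1 to Trbc2 is given as a share because Trbc2 is at 0 in 1 sample. Intervals and floors cover counting error only, since reads without molecular identifiers are not independent molecules.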

Additional observations from a re-analysis of the deposited data

Results flagged for a closer look

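Within each group of 5 kidneys, a value was singled out when its gap to the nearest other kidney, divided by the range of the group, was above Dixon's 95% critical value. Chance marks about 1 in 20 groups, or 4.6 of the 92 groups searched, and 9 were marked. In Rragc S74N/+ replicate 1, Lck was at 25.2 normalized counts while the other 4 kidneys lay between 16.0 and 18.3. In Rragc S74N/+ replicate 4, the sum of the 6 genes was 66.2 against 108 to 122, the sum of Trbc1 and Trbc2 was 17.3 against 40.0 to 47.6, and Cd8b1 per 100 normalized counts of Cd3d plus Cd3e was 150.0 against 30.2 to 42.9. These values of replicate 4 are made of the same few genes and are not independent of each other.

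In Rragc +/+ replicate 2, Trbc1 took 100% of the sum of Trbc1 and Trbc2, against 12.5% to 33.3% in the other 4 kidneys, on a sum of 2.08 normalized counts. Outside the receptor, C1qb was at 122 in Rragc +/+ replicate 1 against 92.2 to 99.6, and Cx3cr1 was at 92.5 in Rragc +/+ replicate 5 against 52.4 to 58.6. Sox13, the one gene of the gamma-delta list, was at 49.0 in Rragc S74N/+ replicate 3 against 33.9 to 37.3. The summed fat cell markers were at 4329 in Rragc S74N/+ replicate 1 against 50.9 to 289 in the other 4 kidneys of that group.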

How the results depend on the processing

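The direction of all 6 genes held in each of the 125 refitted values, of which 118 stayed on the same side of the threshold and 7, those of Lck, moved past it. The number of T cell receptor complex genes past the threshold was 1 as reported and 2 with a pseudocount of 5, equal library totals, equal 75th percentiles, no variance trend or a block for the title number, and it ran from 1 to 2 when 1 kidney was left out, with 2 only without Rragc +/+ replicate 3. The added gene was Lck in each case, with an adjusted p of 0.0498 under the block. With at least 10 normalized counts in 5 samples Trbc1 was not tested and Lck was the 1 gene called. The number of all tested genes past the threshold was 798 as reported, 391 without the variance trend, 1402 with DESeq2 and 851 with edgeR on 8 samples, and 311 to 902 when 1 kidney was left out, with 368, 311, 383 and 371 without Rragc +/+ replicates 1, 2 and 4 and Rragc S74N/+ replicate 5. The cause was not tested. With Trbc1 and Trbc2 summed, chosen after seeing the data, the log2 fold change was 1.98. For Cd3d the exact permutation p fell from 0.063 to 0.048 with equal library totals. No paired analysis was possible because the labels give no replicate numbers. At these depths most kidneys held fewer than 30 reads of each gene, which limits every value given.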
